A study of Mus musculus with 2 samples.

Results

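The genes described here are 43 markers and regulators of the neural tube, from the transcription factors that divide it from ventral to dorsal to the products of young neurons. They were taken by name from a list that was chosen with earlier results of these data known. They were matched to the array by the gene name in the files or by the current symbol of the accessions, and 42 had a probe. Nkx2-2 had no probe under that rule. Of the 42, 36 were detected, meaning that the scanner software marked at least 1 of the genotypes as well above background, the same one on each array, out of 26002 such genes among 32926 on the array. They were measured in the posterior part of mouse embryos with 13 somites, cut at the boundary of the last somite. RNA pooled from 7 Cdx2+/-Cdx4-/- embryos, which keep 1 intact copy of Cdx2 and have none of Cdx4, was hybridised against RNA pooled from 7 wildtype embryos. The mutant pool carried Cy5 on replicate 1 and Cy3 on replicate 2. The labels describe 1 pool per genotype and do not say whether the same RNA extracts were labelled again for the dye swap. On the reading that they were, the 2 arrays were treated as 1 comparison made with each dye orientation. No test between genotypes was made, and each SD below is over these 2 arrays and, on that reading, covers technical error.

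The neural tube is patterned by Sonic hedgehog from the notochord and floor plate and by BMP and Wnt signals from the roof plate, which set up stripes of progenitors that each express their own homeodomain and basic helix-loop-helix factors. Along the axis, new neural tissue forms from the tail end, where FGF and Wnt signals hold back differentiation and retinoic acid from the somites promotes it. Cdx proteins are homeodomain factors of the tail end that act in axial growth and in Hox gene activation. Proneural factors such as the neurogenins then push progenitors out of the cycle, and cytoskeletal and RNA-binding proteins mark the neurons that result.

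The gene removed in the mutant read as labelled: Cdx4 had normalised signals of 128 and 179 in the mutant pool, against 780 and 971 in the wildtype pool, a log2 ratio of -2.52 ± 0.12. Cdx2, of which the mutant keeps 1 copy, had 175 and 146 in the mutant pool and 173 and 158 in the wildtype pool, a log2 ratio of -0.05 ± 0.09, and Cdx1 had 0.19 ± 0.09. Whether the probes lie in the deleted parts is not known here. Median raw signals of gene spots were between 145.6 and 159.5 in both dyes, against 91.3 to 112.8 at the negative control spots, so that much of the array is dim. Among the markers of the tail end, T (Brachyury) had signals of 4960 and 5372 in the mutant pool and 7106 and 7445 in the wildtype pool, while Otx2, a head gene, was not detected. Of 8 head and heart markers with a probe, 6 nevertheless passed the detection flag. A signal above background was therefore not read as proof of transcription in this tissue. In a pool of whole tissue, fewer cells of a kind and less RNA per cell cannot be told apart.

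None of the 36 detected neural genes was at least 1.5-fold higher or lower on each array, the size rule used here. Over all detected genes, 55 were higher (0.212%) and 60 were lower (0.231%). With median centring in place of loess these totals were 27 and 16, and none of the 36 passed. Fewer genes are called there, so that result adds little. With the scanner software's ratio the totals were 167 and 189, and Irx5 was called higher and Mnx1 lower. With an offset of 16 they were 80 and 91, and Mnx1 was called lower. In the main setting at 1.3-fold on each array, Mnx1 was the 1 member past the threshold, on the lower side. On that side lay 0.75% of all detected genes, against 0.538% on the higher side. No member was past 2-fold, against 0.0769% of all detected genes on the higher side and 0.0269% on the lower. The members had a median log2 ratio of 0.03, against 0.00 for all detected genes. In size, 21 of the 36 had a mean log2 ratio under 0.1, against 68.6% of all detected genes, a smaller share of the members. With the same sign on each array, 6 of the 36 had a mean of at least 0.3 in size. The share over all detected genes was 3.69%, so this was a larger share of the members. Because the list was chosen with earlier results of these data known, that excess describes the list only.

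By sign, 14 members were above 0 on both arrays, 9 were below 0 on both and 13 had opposite signs. Over all detected genes the shares were 23.3%, 24.4% and 52.3%. The mutant signals lay wholly above the wildtype signals for 7 members and wholly below for 6, against 9.55% and 10.7% of all detected genes. The SD between arrays, pooled over the members, was 0.189, close to the 0.188 of all detected genes. Of the 36 members, 10 had a mean log2 ratio larger in size than 0.188, against 10.6% of all detected genes. That is a larger share of the members, with the same limit from how the list was chosen.

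**Figure D1:**
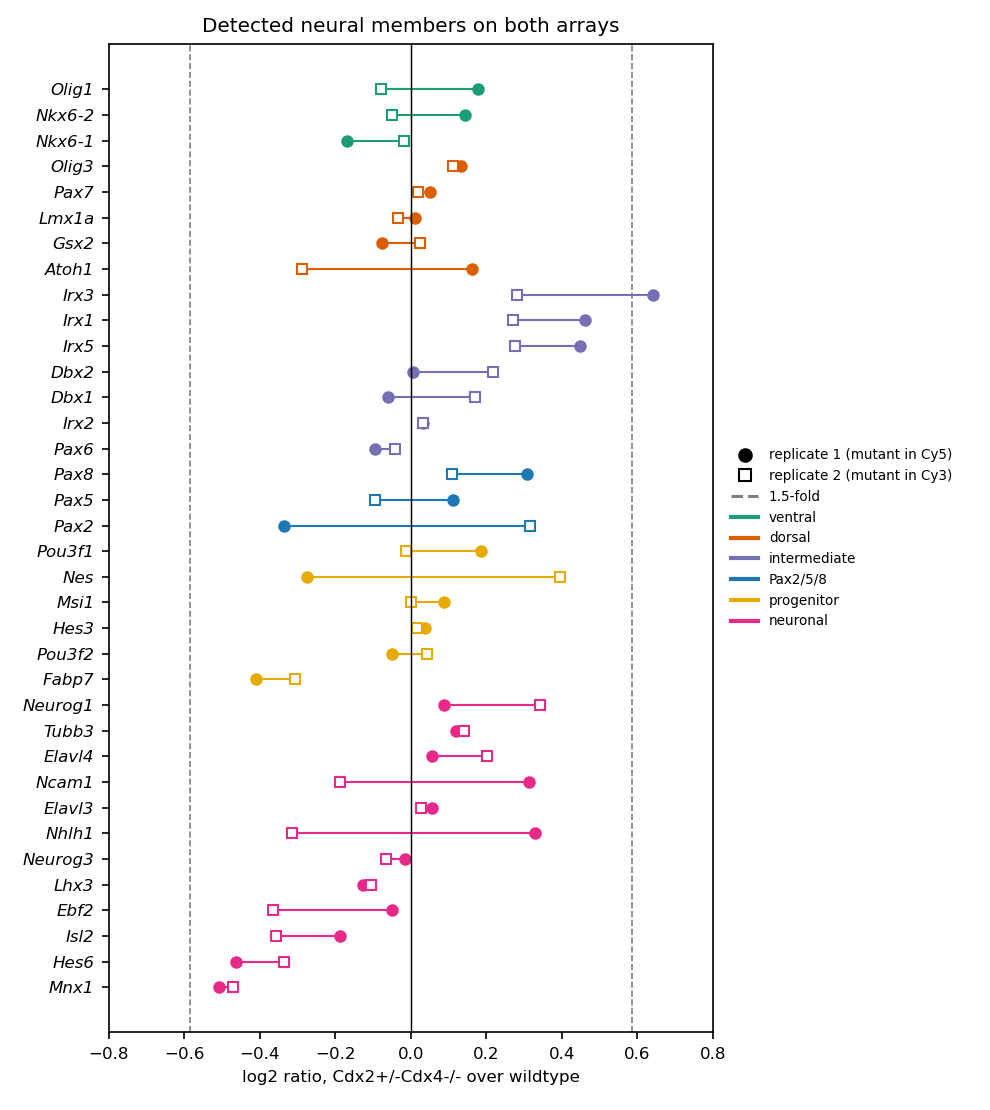
Log2 ratio of mutant over wildtype for each of the 36 detected members on replicate 1 (filled circles) and replicate 2 (open squares), coloured by role, with dashed lines at 1.5-fold. Irx3 on replicate 1, at 0.64, is the 1 point beyond a dashed line, and the lowest means are those of Mnx1, Hes6 and Fabp7, at -0.49, -0.40 and -0.36.

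The 6 members farthest from 0 were the Iroquois genes Irx3, Irx1 and Irx5 on the higher side and Mnx1, Hes6 and Fabp7 on the lower side. They were picked for their values, so what follows describes them. Promoter sequence upstream of the transcription start is shown for the 4 of them that are in the RefSeq table of GRCm38.p6, because the mutant lacks a DNA-binding factor. Each window is the 250 bases before the annotated start on the gene's own strand, the outermost start where a gene has several. It covers chr8:91801655-91801904 for Irx3, chr5:29478471-29478720 for Mnx1 and chr1:91414039-91414288 for Hes6, all on the minus strand, and chr10:57784673-57784922 on the plus strand for Fabp7. Capitals mark CANNTG, the E-box to which basic helix-loop-helix factors bind; TTTAT, the core of known Cdx sites, was also searched on both strands.
Irx3: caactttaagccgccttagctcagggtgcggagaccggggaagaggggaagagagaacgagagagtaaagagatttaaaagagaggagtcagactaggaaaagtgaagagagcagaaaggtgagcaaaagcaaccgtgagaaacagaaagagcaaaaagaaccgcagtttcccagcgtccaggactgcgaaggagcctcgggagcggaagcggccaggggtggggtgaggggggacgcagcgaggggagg
Mnx1: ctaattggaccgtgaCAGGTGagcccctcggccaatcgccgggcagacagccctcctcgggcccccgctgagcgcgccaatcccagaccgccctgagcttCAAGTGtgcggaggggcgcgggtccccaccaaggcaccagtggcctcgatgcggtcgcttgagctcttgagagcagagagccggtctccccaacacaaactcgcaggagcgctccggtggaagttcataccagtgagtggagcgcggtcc
Hes6: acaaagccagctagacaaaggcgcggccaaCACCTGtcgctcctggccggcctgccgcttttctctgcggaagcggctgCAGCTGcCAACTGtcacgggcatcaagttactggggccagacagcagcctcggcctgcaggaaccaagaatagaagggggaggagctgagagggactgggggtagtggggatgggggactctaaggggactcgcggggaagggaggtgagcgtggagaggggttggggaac
Fabp7: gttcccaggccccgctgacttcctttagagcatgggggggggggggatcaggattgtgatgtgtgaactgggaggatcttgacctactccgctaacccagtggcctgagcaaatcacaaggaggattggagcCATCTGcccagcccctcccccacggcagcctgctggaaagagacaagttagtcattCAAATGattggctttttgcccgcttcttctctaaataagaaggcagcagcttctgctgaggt

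The Irx3 window held no E-box, those of Mnx1 and Fabp7 held 2 each and that of Hes6 held 3. None of these windows held TTTAT. The E-box was in 66.2% of all 32851 windows in the table and TTTAT in 37.3%. Over the 45 windows of the 35 members in the table, the shares were 53.3% for the E-box and 40% for TTTAT. These letters describe the windows and show neither binding nor its absence.

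No detected ventral gene had mutant signals apart from its wildtype signals. Nkx6-1, a homeodomain factor of motor neuron and neighbouring progenitors, gave signals of 1246 and 1625 in the mutant pool and 1400 and 1646 in the wildtype pool, a log2 ratio of -0.09 ± 0.11. These signals overlapped, and a second, dimmer Nkx6-1 probe had a mean of 0.36 that came from replicate 2 alone, where it was 0.72, against 0.00 on replicate 1. Nkx6-2, a close relative, had 94.1 and 72.1 in the mutant pool and 85.2 and 74.6 in the wildtype pool. Olig1, of the oligodendrocyte and motor neuron lineage, had 121 and 93.3 in the mutant pool and 107 and 98.7 in the wildtype pool. Both were above 0 on replicate 1 and below 0 on replicate 2. Olig2, which specifies motor neuron progenitors, and Nkx2-9, of the cells beside the floor plate, were not detected, Olig2 with signals from 61.3 to 66.4 and Nkx2-9 with a mutant signal above background on 1 array only.

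Dorsal genes lay close to 0 in the main setting. All 5 were detected, with a median log2 ratio of -0.01 and means from -0.06 to 0.12. Atoh1 and Olig3 were dim, 0.38 and 0.81 log2 units above the median of the negative controls. The offset draws such ratios towards 0, so values near 0 do not show that these genes were unchanged. With the scanner software's ratio Atoh1 was at -0.493, Olig3 at 0.296 and Lmx1a at 0.143. Pax7 and Gsx2 were at 0.045 and -0.027. Pax7, which marks dorsal progenitors, had 185 and 175 in the mutant pool and 178 and 173 in the wildtype pool, a log2 ratio of 0.03 ± 0.02. Olig3, a factor of the dorsal-most progenitors, was the 1 dorsal gene whose pools did not overlap, at 106 and 113 in mutant against 96.8 and 105 in wildtype (log2 ratio 0.12 ± 0.02). That difference is a 1.09-fold one. Lmx1a, which specifies the roof plate, had -0.01 ± 0.03, and its other probe 0.01. Gsx2, of dorsal interneuron progenitors, had -0.03 ± 0.07 and its other probe -0.01. Atoh1, the proneural gene of the dorsal-most interneurons, had 84.8 and 68.3 in the mutant pool and 75.8 and 83.4 in the wildtype pool, and its mutant signal was above background on 1 array only.

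The genes of intermediate or broad position held the highest ratios, in 3 of their 4 Iroquois members. Irx3, which marks neural progenitors dorsal to the motor neuron domain, had signals of 676 and 649 in the mutant pool, against 433 and 534 in the wildtype pool. Both mutant signals exceeded both wildtype signals, by 1.38-fold in the mean, with log2 ratios of 0.64 (replicate 1) and 0.28 (replicate 2). Its probe lies at chr8:91123622-91123681 in the files' coordinates, whose genome build is not named there. Irx5, its neighbour on the same chromosome at 91709534 to 91709593, had 119 and 126 in the mutant pool and 86.9 and 104 in the wildtype pool, again without overlap. Its log2 ratio was 0.45 and 0.28, a 1.29-fold difference. Irx1, in the other Iroquois cluster, had 153 and 135 in the mutant pool and 111 and 112 in the wildtype pool, with log2 ratios of 0.46 and 0.27. Each of these 3 was nearer to 0 on replicate 2.

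Irx2, next to Irx1 on chromosome 13, had 104 and 103 in the mutant pool and 102 and 100 in the wildtype pool, a log2 ratio of 0.03. The Iroquois genes thus did not all read alike. Background limits the size of these differences: the intensity of Irx1, Irx2 and Irx5 lay 1.08, 0.77 and 0.84 log2 units above the median of the negative controls, and that of Irx3 lay 3.23 above it. The dimmer Irx1 probe, not detected, read -0.112 and 0.285. With the scanner software's own ratio Irx5 passed the size rule, at a mean of 0.73, where 0.642% of all detected genes were called higher, and Irx1 averaged 0.62 without passing on both arrays. Without background subtraction Irx5 was at 0.25 and Irx1 at 0.27.

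**Figure D2:**
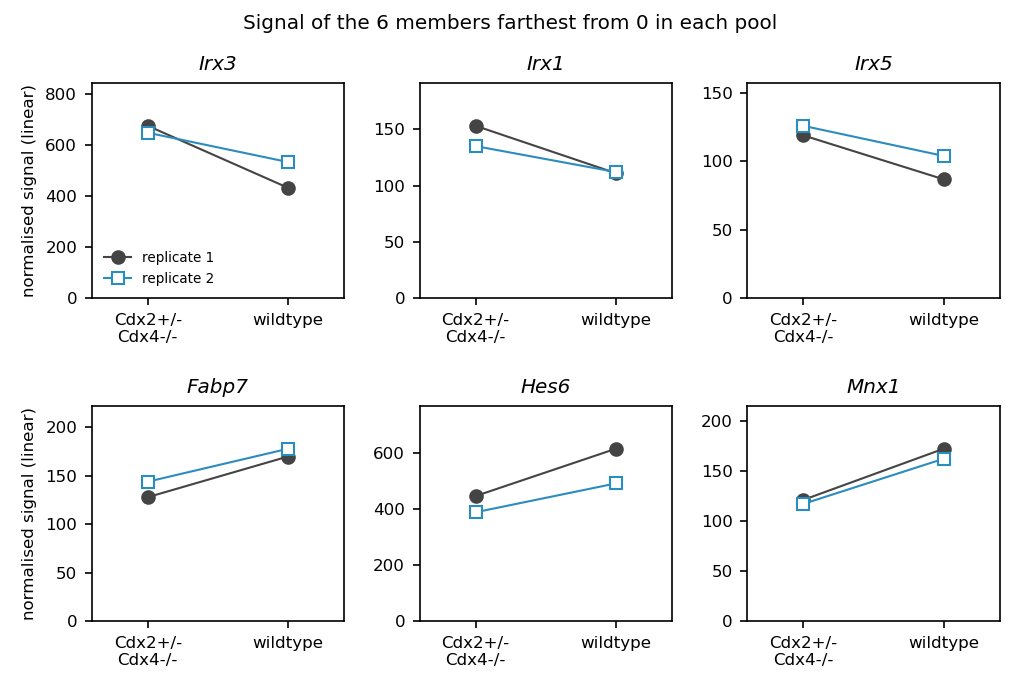
Normalised signal on a linear scale from 0, in the Cdx2+/-Cdx4-/- pool (left) and the wildtype pool (right) of each panel, for the 6 members farthest from 0; lines join the channels of replicate 1 (circles) and of replicate 2 (squares). In each panel the signals of the pools do not overlap, with Irx3 at 676 and 649 in mutant against 433 and 534 in wildtype.

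The other genes of intermediate position had mean log2 ratios from -0.07 to 0.11. Pax6, expressed in a broad middle stripe and needed for ventral interneuron fates, had 76.5 and 69.8 in the mutant pool and 81.8 and 71.9 in the wildtype pool, a log2 ratio of -0.07 ± 0.04 on a dim probe. Dbx1 and Dbx2, which mark the progenitors at the middle of the tube, had log2 ratios of 0.06 ± 0.16 and 0.11 ± 0.15, each carried by replicate 2. A second Dbx1 probe had 0.08. The median of all 7 intermediate genes was 0.11, at 0.03 on replicate 1 and 0.22 on replicate 2.

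Pax2, Pax5 and Pax8, paired-box factors of the midbrain-hindbrain boundary that also mark spinal interneurons and, for Pax2 and Pax8, the nephric lineage, did not pass. Pax8 had 194 and 241 in the mutant pool and 157 and 223 in the wildtype pool, a log2 ratio of 0.21 ± 0.14 with overlapping signals. Pax5 was at 0.01 on both of its probes. Pax2 read -0.34 on replicate 1 and 0.32 on replicate 2, so that Cy3 was the brighter dye on each array and the mean of -0.01 hides opposite readings.

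Among the pan-neural progenitor genes, Fabp7 stood apart and the others were near 0. Fabp7, a fatty acid binding protein of radial glia, had signals of 128 and 144 in the mutant pool and 170 and 178 in the wildtype pool. Both mutant signals lay under both wildtype signals, by 1.28-fold in the mean, with a log2 ratio of -0.36 ± 0.08. Msi1, an RNA-binding protein of neural stem cells, had signals of 808 and 830 in the mutant pool and 760 and 830 in the wildtype pool (log2 ratio 0.04 ± 0.06). Hes3, a Hes repressor of neuroepithelium, had 0.03 ± 0.02, and the POU factors Pou3f1 and Pou3f2 had 0.09 ± 0.14 and 0.00 ± 0.07. Pou3f2 was dim, 0.38 log2 units above the median of the negative controls, and averaged 0.37 with the scanner software's ratio. Nes, the intermediate filament nestin, read -0.28 on replicate 1 and 0.39 on replicate 2, again brighter in Cy3 on each array. The median of the 6 genes was 0.035.

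Of the 16 genes of neuron formation, 12 were detected and none passed the size rule, with a median log2 ratio of -0.016. Of the 8 proneural and differentiation factors, 5 were detected, and Hes6 was the farthest from 0. Hes6, a Hes family member that favours neuronal differentiation by opposing Hes1, had signals of 447 and 389 in the mutant pool and 616 and 492 in the wildtype pool. These did not overlap, at 1.32-fold lower in the mutant pool and a log2 ratio of -0.40 ± 0.09. Ebf2, expressed in newborn neurons, had 78.2 and 76.8 in the mutant pool and 81 and 98.9 in the wildtype pool, and its mutant signal was above background on 1 array only. Neurog1, a neurogenin of sensory and spinal precursors, had 233 and 140 in the mutant pool and 219 and 110 in the wildtype pool, a log2 ratio of 0.22 ± 0.18.

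Neurog3, the endocrine neurogenin, was at -0.04 ± 0.03. Nhlh1, a helix-loop-helix factor of neurons just after their last division, had signals of 1181 and 1024 in the mutant pool and 940 and 1273 in the wildtype pool. It read 0.33 on replicate 1 and -0.31 on replicate 2 in log2 ratio, with Cy5 the brighter dye each time, so the mean of 0.01 carries an SD of 0.46. Neurog2, Neurod1 and Neurod4, which act at successive steps of neurogenesis, were not detected in either pool on both arrays. Neurog2 had 86.4 and 59.7 in the mutant pool and 110 and 65.9 in the wildtype pool, above background in both pools on replicate 1 only.

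Of 4 detected products of differentiated neurons, 3 were above 0 on both arrays and 1 had opposite signs, with a median log2 ratio of 0.10. For 2 of them the mutant signals lay wholly above the wildtype signals. Over all detected genes, 23.3% were above 0 on both arrays and 9.55% had mutant signals wholly above. Tubb3, the neuronal beta-tubulin, had 190 and 194 in the mutant pool and 175 and 176 in the wildtype pool, without overlap, a 1.09-fold difference (log2 ratio 0.13 ± 0.02). Elavl4, an RNA-binding protein of neurons, had 150 and 163 in the mutant pool and 144 and 141 in the wildtype pool, also without overlap, with a log2 ratio of 0.13 ± 0.10. Its relative Elavl3 was at 0.04 ± 0.02. Ncam1, a cell adhesion molecule of neural tissue, read 0.31 on replicate 1 and -0.19 on replicate 2. Dcx, the microtubule protein doublecortin, was above background in the wildtype pool on replicate 1 only and is not given a ratio.

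The 3 motor neuron factors among the members, Mnx1, Isl2 and Lhx3, were below 0 on both arrays by their brightest probes. In each the mutant signals lay under the wildtype signals. Over all detected genes, 24.4% were below 0 on both arrays and 10.7% had mutant signals wholly below. The 3 probes were dim: the intensity of Mnx1, Isl2 and Lhx3 lay 1.24, 0.86 and 0.73 log2 units above the median of the negative controls. Other LIM factors of motor neurons outside the members were not below 0 on both arrays. Isl1 was at 0.00 ± 0.17 and Lhx4 at 0.04 ± 0.13, each with opposite signs on the arrays. Mnx1, a homeodomain factor of motor neurons that the notochord also expresses, had 121 and 117 in the mutant pool, against 172 and 162 in the wildtype pool. At 1.4-fold lower (log2 ratio -0.49 ± 0.03) it was the lowest of the 36 members and agreed closely between arrays. Its probe lies on chromosome 5 at 27877140 to 27877199 in the files' coordinates. Isl2, a LIM homeodomain factor of postmitotic motor neurons, had 95.8 and 102 in the mutant pool and 109 and 131 in the wildtype pool, a log2 ratio of -0.27 ± 0.12. Its other probe gave -0.12.

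Lhx3, which acts with Isl1 in motor neurons, had 95.4 and 95 in the mutant pool and 104 and 102 in the wildtype pool, a log2 ratio of -0.12 ± 0.02, but its second probe averaged 0.13, with -0.17 on replicate 1 and 0.44 on replicate 2. With the software's ratio Mnx1 passed the size rule at -0.70, where 0.727% of all detected genes were called lower, and with an offset of 16 it passed at -0.65, where 0.35% were. Without background subtraction it was at -0.36. Of 9 tail-end markers, all detected, Cyp26a1 passed the rule on the lower side. By sign, 4 were below 0 on both arrays, 2 were above 0 on both and 3 had opposite signs. Their median was 0.00, at -0.10 on replicate 1 and -0.08 on replicate 2. At 1.3-fold on each array, 3 were lower (Cyp26a1, T and Wnt3a) and none higher, against 0.75% and 0.538% of all detected genes. T and Wnt3a were at -0.49 ± 0.03 and -0.46 ± 0.05, and Fgf8 and Tbx6 at 0.10 ± 0.11 and 0.06 ± 0.16. Foxa2 and Shh, which both notochord and floor plate express, were at 0.33 ± 0.10 and 0.02 ± 0.12. Foxa2 is also on the gut endoderm list, of whose 8 detected genes 3 rose past the size rule. Neither gene thus reads the notochord alone. No list of notochord genes was made, and T was counted with the tail end only. These values therefore do not show how notochord genes moved. The part of the tail end, notochord and floor plate in the Mnx1 value was not tested.

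**Figure D3:**
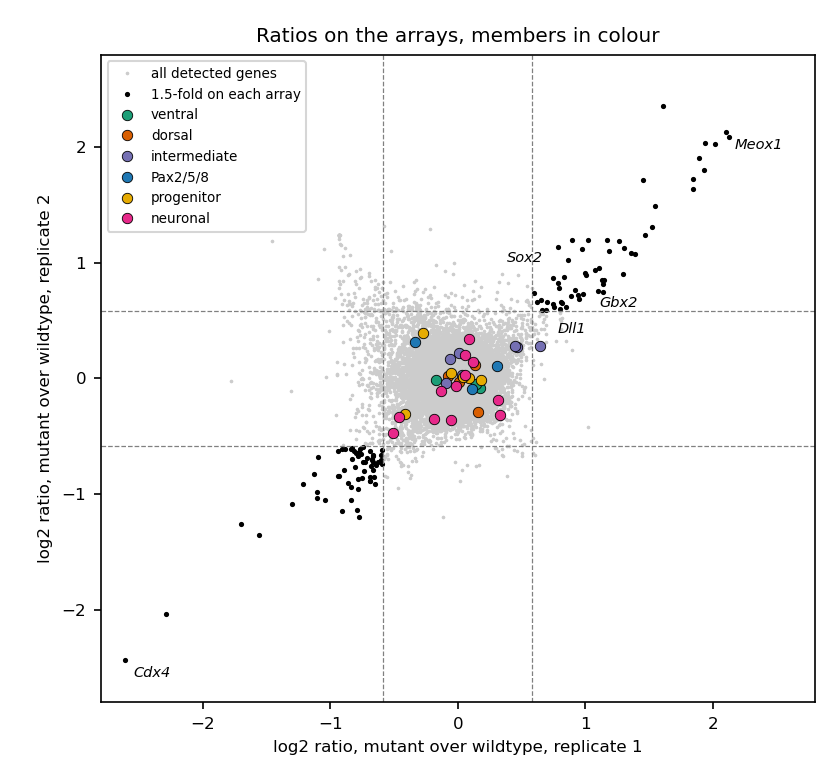
Log2 ratio of mutant over wildtype on replicate 1 (horizontal) and replicate 2 (vertical) for all 26002 detected genes (grey), those past 1.5-fold on each array (black) and the 36 members (coloured by role); dashed lines mark 1.5-fold. The members lie inside the central box or beside it, with Irx3 beyond the line of replicate 1 alone, while Sox2, Gbx2 and Dll1 lie in the upper right corner.

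Of 73 other genes of neural progenitors, dorsoventral patterning and neurogenesis, 61 were detected, and 4 rose past the size rule while none fell. The array-wide rate was 0.212% for a rise. Gbx2, a homeodomain factor of hindbrain and posterior neural plate, had 882 and 884 in the mutant pool and 457 and 550 in the wildtype pool, 1.76-fold higher. Sox2, of neural progenitors, had 443 and 458 in the mutant pool and 264 and 252 in the wildtype pool. Dll1, a Notch ligand of both nascent neurons and presomitic mesoderm, had 1500 and 1433 in the mutant pool and 953 and 896 in the wildtype pool. Of the 4, 3 were among 13 detected progenitor genes, Gbx2 and Sox2 included, whose median was 0.24, at 0.095 on replicate 1 and 0.43 on replicate 2.

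None of the 18 detected genes of dorsoventral signals and patterning passed (median 0.02). Gli2, a hedgehog pathway factor, was the farthest from 0 with the same sign on each array, at 0.31 on replicate 1 and 0.75 on replicate 2. Of 30 further detected genes of neurogenesis and neurons, Dll1 alone passed and the median was 0.02. Gadd45g, a stress and differentiation gene, was past 1.3-fold on the lower side, at 2096 and 2089 in the mutant pool and 3217 and 3027 in the wildtype pool. Of 13 detected retinoic acid and FGF pathway genes, Cyp26a1, which breaks down retinoic acid in the tail end, fell by 1.04 on the log2 scale, with 584 and 639 in the mutant pool and 1254 and 1263 in the wildtype pool. Aldh1a2, the main retinoic acid synthesis enzyme of the somites, had 0.30 ± 0.10.

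Among markers of the other tissues in the cut region, some of those of paraxial mesoderm, gut endoderm, endothelium and intermediate mesoderm passed the size rule. Over all detected genes, 0.212% passed on the higher side and 0.231% on the lower. The lists were chosen with earlier results of these data known. The part of these tissues in the neural values was not tested. Of 11 detected paraxial mesoderm markers, 6 rose and none fell, with a median log2 ratio of 1.18. Their summed signals were 8456 and 8202 in the mutant pool and 5511 and 5219 in the wildtype pool. Each sum in this paragraph adds probes of unlike brightness with their offset, so it does not measure the amount of a tissue. Uncx and Pax1 were not detected. Meox1, of the somites, had 504 and 475 in the mutant pool and 117 and 108 in the wildtype pool. All 10 detected endothelial markers were below 0 on both arrays and 2 fell, Sox18 and Cldn5, with sums of 3271 and 3024 in the mutant pool and 4771 and 4598 in the wildtype pool. Of 8 gut endoderm markers 3 rose, Trh, Nepn and Spink1, and the sums were 3342 and 3236 in the mutant pool and 2415 and 2120 in the wildtype pool. None of 5 surface ectoderm and 6 neural crest markers passed, with medians of 0.26 and 0.03 and Wnt6 at 0.53 and Ets1 at -0.56. Of 6 intermediate mesoderm markers, the posterior Hox gene Hoxd11 fell (median 0.00), and none of 6 head and heart markers passed (median 0.00, Myl7 at 0.11).

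**Figure D4:**
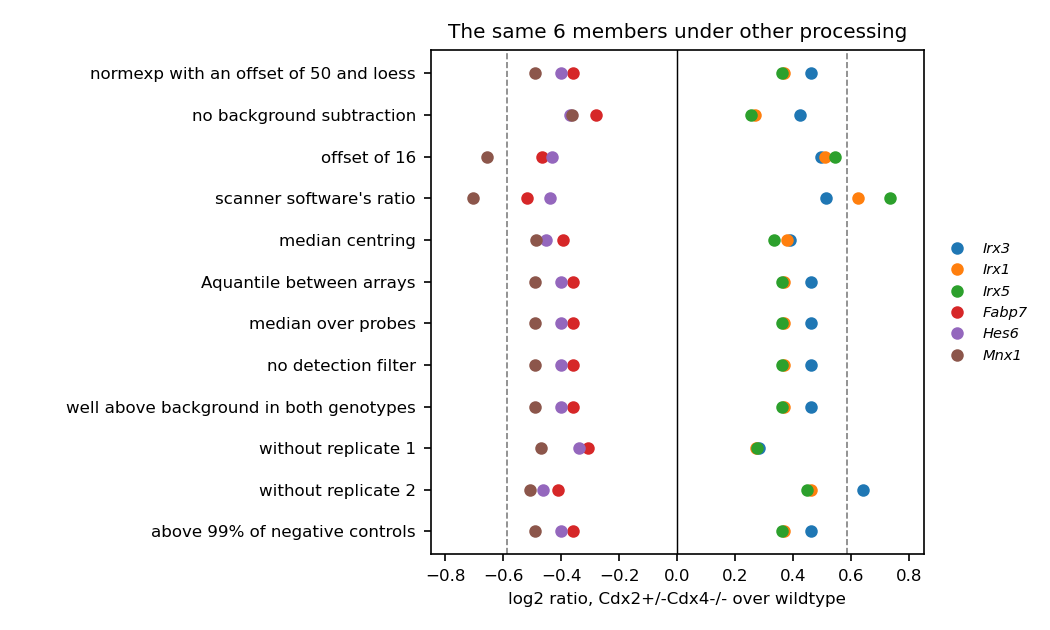
Log2 ratio of mutant over wildtype of the 6 members farthest from 0 (horizontal) under each processing setting (vertical), with dashed lines at 1.5-fold; 2 settings use a single array. Each of the 6, picked for its distance from 0 on these same arrays, keeps its sign in every setting shown. The range is from 0.25 to 0.73 for Irx5 and from -0.70 to -0.36 for Mnx1.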

How the data were processed

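Posterior tissue RNA of both genotypes was compared on 2 dye-swapped arrays. The deposited intensity values are mean pixel signals per spot and median local background in Cy3 and Cy5, not normalized, as the file headers name them. As an alternative, the log10 ratio of Cy5 over Cy3 was used, which the authors' Agilent Feature Extraction run made after spatial detrending and dye normalization, per the file headers. The headers name version 7.5.1 and the submitters' processing notes 9.5.3.

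From these, signals were corrected with normexp (limma 3.58.1, R 4.3.3, offset 50 to steady dim ratios), normalized by loess within arrays with control spots at weight 0, and turned to mutant over wildtype by the dyes in the labels. The offset stays in the printed signals, which are linear, per channel, after loess and Aquantile scaling, and compare only within a probe; it draws the ratios of dim genes towards 0. Outlier spots (219 and 98 gene spots) were left out. The brightest detected probe stood for a gene. Of 41013 probes, 19780 were named by RefSeq accession, 3620 by symbol, 2908 by synonym on the same chromosome and 14506 by the files alone; 199 fitted several genes and were unnamed. Etv5 and Osr1, whose brightest probes lay on another chromosome in the files than in RefSeq, and Crabp1, with an outlier spot, were not used. A dimmer Osr1 probe on the RefSeq chromosome, at a log2 ratio of -0.002, was not used in its place. A call required log2 of 1.5 (0.585) on each array in the same direction. Named genes were the members, list genes past the rule or, failing these, the farthest from 0 with the same sign on both arrays, and Cdx1, Cdx2 and Cdx4; T, Wnt3a, Fgf8, Tbx6, Foxa2, Shh, Isl1, Lhx4, Otx2, Aldh1a2 and Gadd45g were named after their values were seen. A list gene past the rule and a detected head marker are not reported here. The members and lists were chosen with earlier results of these data known. Background correction, loess and the size rule were tested on simulated dye swaps, with changes placed at brighter spots only. Probe naming, probe choice and detection were not part of that test. Alternatives changed background, normalization, probe choice, detection, threshold and array; the number of arrays limits precision.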

Additional observations from a re-analysis of the deposited data

How the results depend on the processing

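No paired analysis was possible because the labels give no more than 1 pool per genotype, read here as hybridised on both arrays, and each array holds both genotypes. Why values moved was not tested, beyond what fewer arrays or a different threshold imply by construction. Dim signal is a limit beside the number of pools and arrays: 15 of the 36 detected members lay within 1 log2 unit of the negative control median. Only 31 exceeded the 99th percentile of the negative controls. Nkx6-2, Atoh1, Pax6, Pou3f2 and Ebf2 did not. Under the 9 alternatives that keep both arrays, 26 members kept the sign of their mean and 10 changed it under at least 1. None of those 10 was among the 6 farthest from 0, which were picked for that distance on these same arrays. Their kept signs are therefore no added support. Against none in the main setting, 1 member was higher with the software's ratio (Irx5), and 1 was lower with that ratio, with an offset of 16 and at 1.3-fold (Mnx1 each time); on single arrays 0 to 1 was higher (Irx3 with replicate 2 left out) and none lower. Over all genes, against 55 higher and 60 lower, the software's ratio gave 167 and 189, median centring 27 and 16, the 1.3-fold threshold 140 and 195 and the 2-fold threshold 20 and 7. Lower genes numbered 95 when the rule used the arrays' mean, 91 for the smaller offset and 38 when background was left in. Single arrays, where dye effects stay in, gave 93 to 257 higher and 125 to 376 lower. The median log2 ratio of all members, 0.033, was 0.008 to 0.044 on single arrays. The dorsal median of -0.012 became 0.045 with the software's ratio, 0.018 with median centring and 0.011 both with detection in both genotypes and with signal above 99% of negative controls, a filter chosen after seeing the data, and 0.018 to 0.050 on single arrays. The progenitor median of 0.035 became 0.055 with the software's ratio, 0.009 with median centring and -0.006 to 0.008 on single arrays. The Pax2/5/8 median of 0.008 became 0.011, -0.012 and, over the median of probes, 0.010, and 0.110 to 0.112 on single arrays. The neuronal median of -0.016 ranged from -0.148 to 0.020 on single arrays.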
